A study of Mus musculus with 40 samples.

Results

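The genes described here are 33 interferon-stimulated genes measured by RNA-seq in 28 libraries of sorted mouse follicular (FO) B cells. They were chosen by name, as genes known to be switched on by type I interferon, and all 33 were found among the 24732 genes of the files. Of these, 30 matched by symbol and 3 (Ifi27l2a, Parp9 and Ifi47) are rows that the files mark as overlapping another gene, so reads of the neighbour may be counted in them. Values are TPM, length-scaled transcript counts relative to library size, which allows levels of different genes to be compared per length.

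All cells came from C57BL/6 mice carrying the MD4 transgene, a B cell receptor specific for hen egg lysozyme (HEL). The study removed Ikaros, the zinc-finger factor encoded by Ikzf1, with Cd23-cre, a Cre recombinase that becomes active late in B cell development, so the cells formed with Ikaros and lost it near maturity. Naive cells were Cd23-cre Ikzf1(fl/-) in 2 libraries and Cd23-cre Ikzf1(fl/+) in 3, with 2 further libraries of Ikzf1(fl/+) cells without Cre. Cells taken 1 day after intravenous HEL were Ikzf1(fl/fl) without Cre in 5 libraries and Cd23-cre Ikzf1(fl/fl) in 5, so this pair differs in Cre as well as in Ikaros. Cells cultured for 1 day with CpG, a DNA ligand of Toll-like receptor 9, were Cd23-cre Ikzf1(fl/-) in 4 libraries and Cd23-cre Ikzf1(fl/+) in 4, so these controls carry Cre and 1 intact allele. Anergic cells also carried the ML5 transgene, which makes soluble HEL throughout life, and were Ikzf1(fl/fl), Ikzf1(fl/+) and Cd23-cre Ikzf1(fl/+) in 1 library each; they are treated as 1 group of 3. The labels give no ages and do not tell whether the libraries of a group are from different mice. The p-values therefore reflect only how far these libraries scatter, and part of that scatter may be technical. In bulk samples, fewer cells making a transcript and less of it per cell cannot be told apart.

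Type I interferon binds the receptor chains Ifnar1 and Ifnar2, and the kinases Jak1 and Tyk2 then act on transcription factors that include Stat2. Stat2 and Irf9 are parts of a complex that binds the interferon-stimulated response element (ISRE) in front of its target genes. The gamma-activated site (GAS) is another element found in front of interferon-responsive genes. The targets include sensors of foreign RNA and DNA, enzymes that degrade RNA or block translation, and proteins that trap virus particles. Toll-like receptor 9 can reach the interferon genes through Irf7, itself an interferon target, and Usp18 and the Socs proteins limit the response.

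Recovered reads ranged from 12126702 to 25424364 per library. Ikzf1 was lower in every library of deleted cells: 57.3 to 65.3 TPM in naive fl/- against 120 to 136 in fl/+ libraries of the same series, 60.3 to 79.3 against 195 to 261 after HEL, and 31.7 to 39.5 against 135 to 172 after CpG. The summed TPM of 8 B cell markers lay between 11967 and 17342 in all libraries outside CpG and between 1993 and 3618 in the CpG libraries. Libraries stood apart within groups. The 8 CpG libraries fall into a first and a second block of 4 consecutive library numbers, each holding 2 fl/- and 2 fl/+ libraries; what the numbers stand for is not stated. Replicate 5 of the HEL controls was low for the interferon-stimulated genes, and the 2 series of naive libraries, numbered from 36 and 57, differed in transcripts of other cells. By their Y-linked transcripts 8 libraries were taken as female, replicates 1 to 3 of each HEL group and 1 library of each naive genotype in series 36, and 20 as male.

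RefSeq promoter windows (build GRCm38.p6) were matched for 23 of the 33 genes. An ISRE core, written here as GAAANNGAAA on either strand, was found in the 250 bases before the start of 10 of these 23 (43.5%) and of 936 of 27025 promoters overall (3.46%). The 10 were Bst2, Ifit1, Ifit3, Igtp, Irgm1, Isg15, Oas1a, Oas3, Rsad2 and Stat2; cores overlap each other in Isg15, Bst2, Irgm1 and Oas1a. A GAS core, TTCNNNGAA, was found in 6 of 23 (26.1%: Bst2, Eif2ak2, Ifit2, Igtp, Isg20 and Oas1a), against 2197 of 27025 overall (8.13%). Irf7, Oasl1 and Oasl2 had a window without the ISRE letters. A match describes letters and is not evidence of a bound site. The 4 stretches below are those with an ISRE core whose genes differed most between the CpG blocks. They lie upstream of the first transcribed base, outside the gene, and are printed 5′ to 3′ on the strand of the gene with the ISRE cores in capitals. Isg15 (chr4:156200819-156200948, minus strand) holds 3 overlapping cores, Oas3 (chr5:120777685-120777789, minus strand) 1, Ifit1 (chr19:34640759-34640888, plus strand) 2 and Rsad2 (chr12:26456453-26456582, minus strand) 1.
Isg15: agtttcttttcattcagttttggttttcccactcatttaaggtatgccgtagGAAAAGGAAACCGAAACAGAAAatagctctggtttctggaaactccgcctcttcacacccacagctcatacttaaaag
Oas3: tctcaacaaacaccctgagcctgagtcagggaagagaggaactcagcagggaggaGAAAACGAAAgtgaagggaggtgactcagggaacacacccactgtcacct
Ifit1: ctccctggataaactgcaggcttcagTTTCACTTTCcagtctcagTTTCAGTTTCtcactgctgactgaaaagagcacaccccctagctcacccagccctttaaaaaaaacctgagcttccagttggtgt
Rsad2: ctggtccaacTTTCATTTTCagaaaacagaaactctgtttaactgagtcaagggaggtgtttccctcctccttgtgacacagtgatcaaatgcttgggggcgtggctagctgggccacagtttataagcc

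Averaged over the 33 genes, the lowest and the highest library were both CpG cultures. The mean log2(TPM + 1) over the 33 genes was 2.71 in CpG fl/- replicate 1 and 7.04 in CpG fl/+ replicate 3, and their summed TPM went from 434 to 9993 between these libraries. CpG fl/+ replicate 3 was the highest of all 28 libraries for 22 genes, and HEL control replicate 1 for the other 11. The anergic Ikzf1(fl/+) library was the lowest or joint lowest of all 28 for 6 genes (Oas1a, Oas3, Bst2, Ifih1, Ifi44 and Eif2ak2), and a first-block CpG library for the rest. For Ifi44 this anergic library tied at 0 TPM with first-block CpG fl/+ replicate 1. Between the CpG extremes lay the anergic libraries at 3.53, 3.89 and 4.18, HEL control replicate 5 at 4.25, and the 7 naive libraries from 4.45 to 5.13. The HEL Cre libraries were at 5.14 to 5.80 and HEL controls 1 to 4 at 6.42, 5.75, 5.63 and 5.49. Within HEL the 6 female libraries were at 5.28 to 6.42 and the 4 male ones at 4.25 to 5.49.

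**Figure D1:**
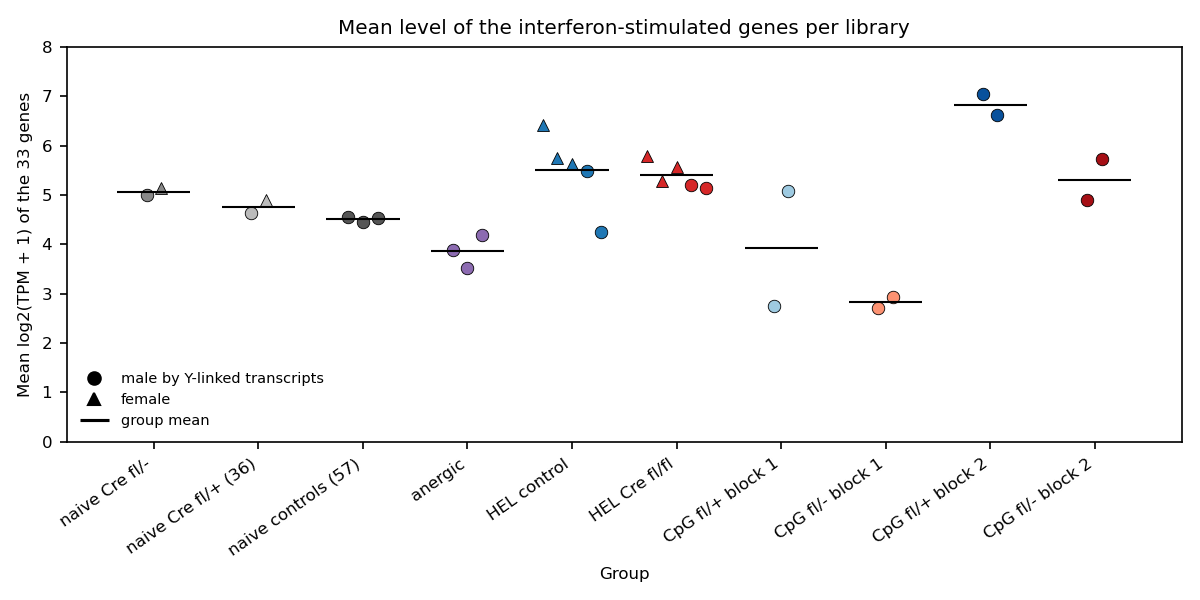
Mean log2(TPM + 1) of the 33 interferon-stimulated genes in each of the 28 libraries (vertical axis), by group (horizontal axis); circles are male and triangles female libraries, and the line is the group mean. The CpG libraries run from 2.71 to 7.04, whereas the 7 naive libraries stay between 4.45 and 5.13.

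**Figure D2:**
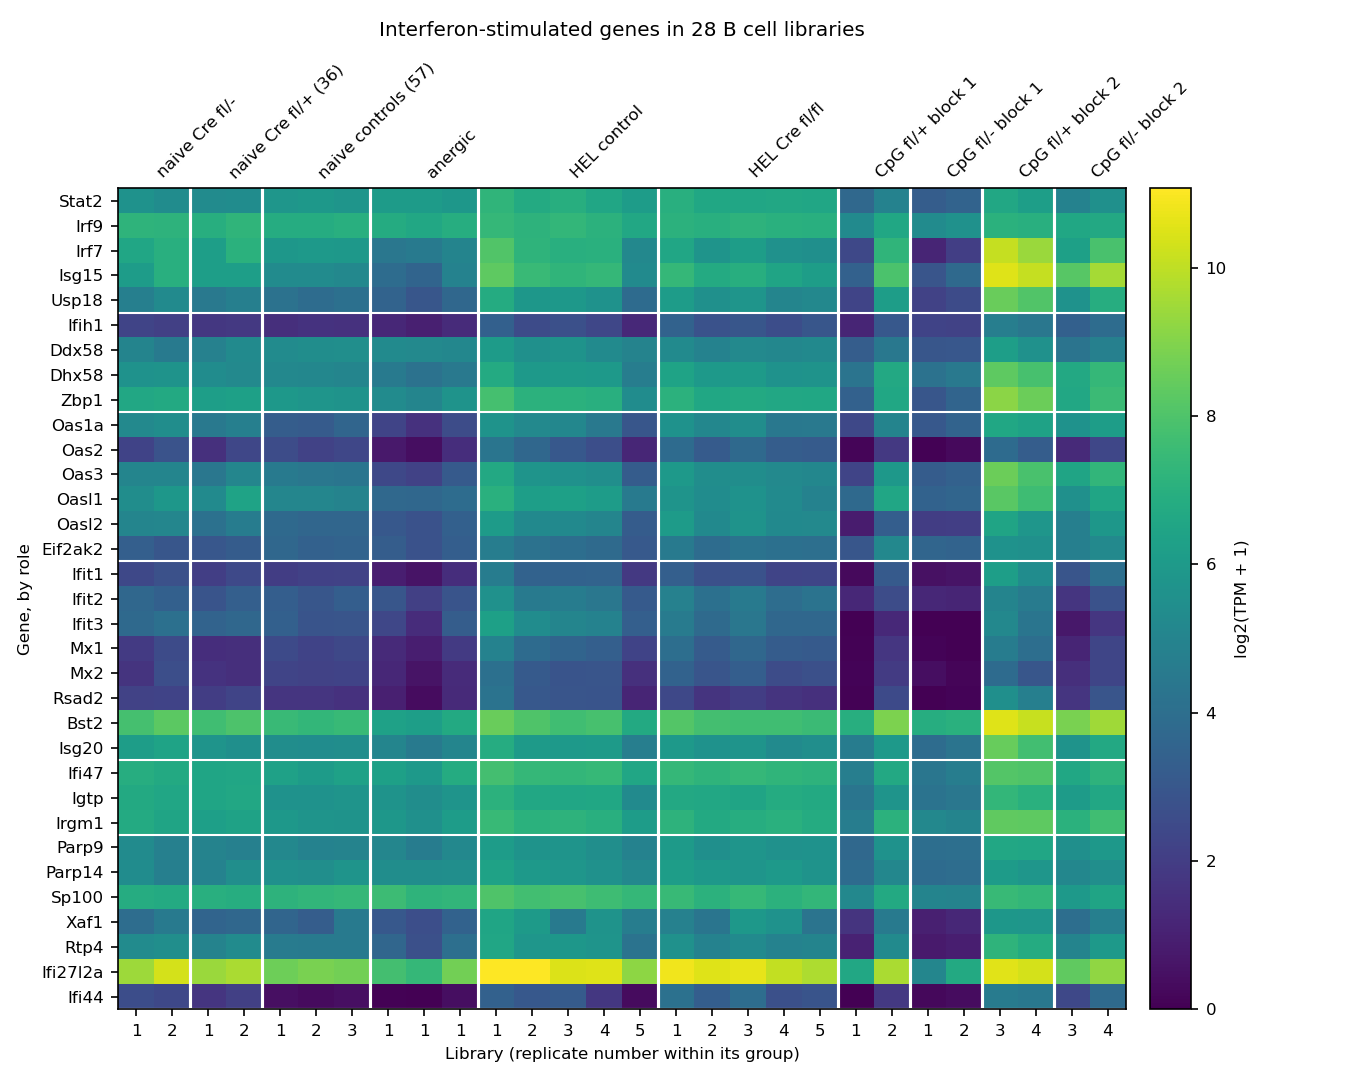
Level of each of the 33 genes (rows, ordered by role) in each of the 28 libraries (columns, by group), coloured by log2(TPM + 1). The first-block CpG columns are low in most rows except in CpG fl/+ replicate 2, HEL control replicate 5 is lower than the other HEL controls in 32 of 33 rows, and the anergic columns are low in the OAS rows.

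The CpG blocks were compared first, since both genotypes are in each block. The second block was higher than the first for 31 of the 33 genes, with genotype as a term; 2.51% of the 10386 genes tested rose. The median log2 difference was 2.53 over the 33 genes and -0.02 over all genes. Eif2ak2 (1.48 ± 0.38, SE, adjusted p = 0.0737), the kinase PKR that halts translation, and Ifi27l2a (2.62 ± 0.61, adjusted p = 0.0538) were not called. Per role, the block difference was called for 5 of 5 regulators, 4 of 4 sensors, 5 of 6 genes of the OAS family and PKR, 8 of 8 other effectors, 3 of 3 GTPases and 6 of 7 remaining genes. Nonetheless, only 9 of the 33 had every second-block library above every first-block library (3.34% of all genes did); first-block fl/+ replicate 2, with a mean of 5.09, lay above second-block fl/- replicate 3, with 4.89. The count also rests on single libraries, as do the calls over all genes. It was 0 without fl/- replicate 4, fl/+ replicate 3 or fl/+ replicate 4, where 0.00977%, 0.0388% and 0.0388% of all genes were called higher. It was 4 without fl/- replicate 1 (0.596% of all genes) and 12 without fl/- replicate 2 (1.22%). The median difference of the interferon-stimulated genes tested in these fits was 2.34 to 2.68.

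Among the regulators, Irf7, the factor that carries Toll-like receptor signals to interferon genes, was at 4.22 and 152 TPM in the first-block fl/+ libraries and 1.21 and 3.15 in the fl/- ones. In the second block it was at 1096 and 673 TPM in fl/+ and 76.3 and 237 in fl/-. Irf7 thus differed 906-fold between the highest and lowest CpG library, and its block difference was 5.21 ± 0.89 on the log2 scale (adjusted p = 0.0214). Isg15, the ubiquitin-like modifier shown above with 3 ISRE cores, was at 9.97 and 241 TPM in first-block fl/+, 6.57 and 13.0 in first-block fl/-, 1488 and 1095 in second-block fl/+ and 289 and 754 in second-block fl/- libraries (block difference 5.07 ± 0.82, adjusted p = 0.0184). Usp18, which removes Isg15 from proteins, was at 3.82, 69.9, 374 and 265 TPM in fl/+ replicates 1 to 4 and at 3.54, 4.82, 49.1 and 119 in fl/- (4.01 ± 0.70, adjusted p = 0.0227). For each of these 3 genes the 3 lowest libraries were fl/+ replicate 1 and fl/- replicates 1 and 2, and fl/+ replicate 3 was the highest. Irf9, the DNA-binding partner of Stat2, moved least of those called, by 1.12 ± 0.23 (adjusted p = 0.0363), and its highest CpG library was 3.46 times its lowest.

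The sensor Zbp1, which recognises Z-form nucleic acid, was at 9.89, 96.8, 561 and 389 TPM in CpG fl/+ replicates 1 to 4 and 6.68, 10.9, 100 and 186 in fl/- (block difference 3.85 ± 0.57, adjusted p = 0.0147). In the OAS family, whose members make the 2-5A signal that activates RNase L, Oas3 was at 3.78, 58.9, 379 and 239 TPM in fl/+ and 8.45, 9.75, 87.9 and 153 in fl/- (3.85 ± 0.65, adjusted p = 0.0207). Oasl2 was at 0.785, 9.0, 88.4 and 55.0 TPM in fl/+ and 3.06, 3.21, 26.8 and 56.6 in fl/- (3.67 ± 0.49, adjusted p = 0.0121). Oasl2 was the only gene of the 33 whose second-block fl/- range reached into the fl/+ range. Ifit1, which binds foreign RNA lacking cap methylation, was at 0.233, 7.75, 72.9 and 40.7 TPM in fl/+ and 0.404, 0.483, 6.58 and 15.5 in fl/- (3.52 ± 0.57, adjusted p = 0.0184). Rtp4 was among the most changed of the remaining genes, at 1.08, 38.2, 146 and 112 TPM in fl/+ and 0.752, 0.891, 31.4 and 59.9 in fl/- (4.22 ± 0.75, adjusted p = 0.0241). The same 3 first-block libraries were the lowest for each of these 5 genes.

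**Figure D3:**
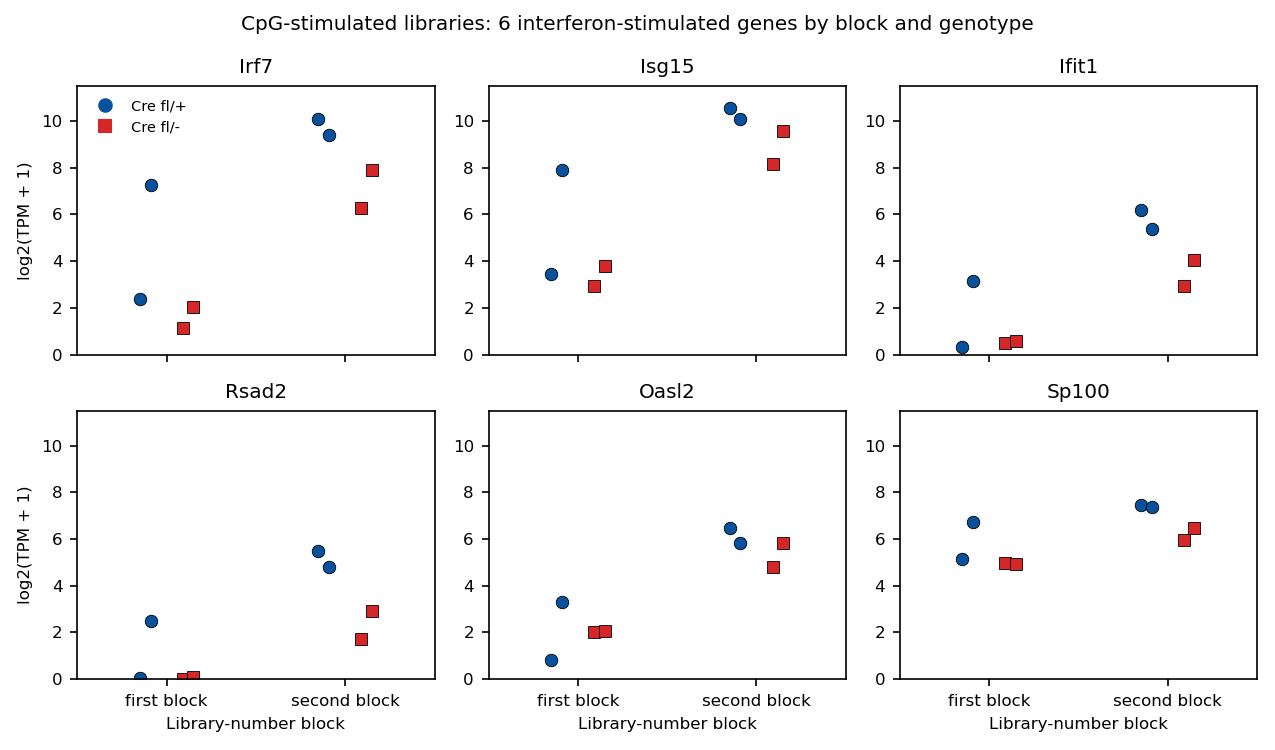
log2(TPM + 1) (vertical axis) of Irf7, Isg15, Ifit1, Rsad2, Oasl2 and Sp100 in the 8 CpG libraries, by block (horizontal axis); blue circles are fl/+ and red squares fl/- libraries. In the first block fl/+ replicate 2 is the highest of the 4 libraries for every gene shown. There fl/+ replicate 1 lies below both fl/- points for Ifit1 and Oasl2. In the second block the fl/+ points lie above the fl/- points for every gene but Oasl2.

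Some transcripts of myeloid cells were higher in the second block. The summed TPM of 9 neutrophil markers was 0.0838 to 0.251 in the first block and 7.32 to 126 in the second, with 8 of 9 at 0 in both first-block fl/- libraries; S100a8 (2.98 ± 0.53), Camp (2.09) and Ngp (2.67) were called higher. The sum of 11 macrophage and monocyte markers was 4.59 to 65.1 in the first block and 51.4 to 362 in the second. Of these Ly6c2 was called (4.76 ± 0.77), at 2.30, 64.3, 305 and 347 TPM in fl/+ and 1.18, 1.27, 43.7 and 120 in fl/-. Ly6c2 alone made up most of the sum in every second-block library and in first-block fl/+ replicate 2. It is itself interferon-inducible in some cells and is counted among the other type I interferon-induced genes below. The part of these cells in the block difference was not tested.

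After CpG, all 33 genes had a negative log2 difference between fl/- and fl/+ libraries, with a median of -1.12 against 0.02 over all genes, but limma called 0 of 33. Of all 10386 genes, 14.9% were called in either direction. At an unadjusted p under 0.05, 0 of the 33 and 3153 of all genes passed, and voom on the recovered reads also called 0 of the 33. The largest differences were in Irf7 (-2.94 ± 1.94, adjusted p = 0.345), Ifit3 (-2.07 ± 1.05, adjusted p = 0.225) and Rsad2 (-2.04 ± 1.16). Isg15 had -1.89 ± 1.87 (adjusted p = 0.537) and Oasl2 -0.43 ± 1.31 (adjusted p = 0.857), so the error was about as large as the difference for Isg15 and larger than it for Oasl2. Without fl/+ replicate 1, the fl/+ library with the lowest mean over the 33 genes, 6 genes were called lower (7.27% of all genes were). That library is picked out by these same genes, so leaving it out by itself favours lower fl/- values.

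Within the second block alone, 30 of the 33 genes were lower in fl/- than in fl/+ cells (11.9% of 10480 genes were), with a median difference of -1.4 against 0.02 over all genes. The ranges did not overlap for 32 of the 33, Oasl2 being the exception, while 31.6% of all genes had fl/- below fl/+ in this way. This comparison holds 2 libraries against 2. The sum of macrophage and monocyte markers was 312 to 362 TPM in these fl/+ and 51.4 to 128 in the fl/- libraries. Most of that sum was the interferon-inducible Ly6c2, at 305 and 347 TPM in fl/+ and 43.7 and 120 in fl/-. Ly6c2 (-2.15 ± 0.41) and C1qb (-1.09 ± 0.21) were called lower. The part of these transcripts was not tested. Ifit3, a partner of Ifit1 in RNA binding, was at 34.6 and 18.6 TPM in fl/+ and 0.654 and 2.33 in fl/- (-3.49 ± 0.38, adjusted p = 0.00277). Rsad2, which encodes viperin, was at 44.2 and 26.6 TPM against 2.24 and 6.57 (-2.83 ± 0.40, adjusted p = 0.00565). Irf7 fell by 2.66 ± 0.49 (adjusted p = 0.0131) and Ifit2 by 2.54 ± 0.33 (adjusted p = 0.00437). Mx1, a dynamin-like GTPase against influenza-type viruses, was at 23.8 and 14.8 TPM against 1.19 and 3.91 (-2.60 ± 0.39, adjusted p = 0.00639). Usp18 fell by 2.03 ± 0.38, the exonuclease gene Isg20 had -1.91 ± 0.36 (adjusted p = 0.0141), and Irf9 fell by only 0.41 ± 0.07 (adjusted p = 0.0118). Of the genes named here, Ifit3 showed the largest difference and Irf9 the smallest. Ifi44 (-1.4, adjusted p = 0.054), Oas1a (-0.58, adjusted p = 0.0564) and Oasl2 (-0.82 ± 0.35, adjusted p = 0.144) were not called.

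In the first block the same comparison had a median of -0.93 over the 26 genes tested and called 0; limma gave 1 of the 26 and 1780 of all 10438 genes at an unadjusted p under 0.05. In that block 3 of the 4 libraries were near the floor, for example Ifit3 at 0, 0 and 0 TPM and 1.42 in fl/+ replicate 2. The test of the difference between the blocks called 0 of 33 (median -0.21, -0.05 over all genes), and 0% of the 10719 genes tested; 2 of the 33 and 790 of all genes passed an unadjusted p of 0.05, and voom called 0 of the 33. The largest difference between blocks was that of Ifit3 (-2.86 ± 0.70, adjusted p = 0.397). With the block as a term, 13 genes were called lower (9.04% of all genes were): Irf7 (-2.94 ± 0.89, adjusted p = 0.0468), Isg20 (-1.57 ± 0.35, adjusted p = 0.0132), Ifit3, Rsad2, Oasl1, Xaf1, Mx1, Ifit2, Oas2, Ifi47, Ddx58, Sp100 and Stat2.

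After HEL, deletion of Ikaros called 0 of the 33 genes higher and 1 lower, where 12.9% of the 10258 genes tested rose and 24.1% fell. The gene was Sp100, a component of nuclear bodies, at 258, 210, 230, 195 and 165 TPM in controls 1 to 5 and 176, 136, 171, 137 and 158 in Cre libraries (-0.43 ± 0.11, adjusted p = 0.00859). The median difference was -0.06, close to the -0.08 of all genes, and voom also called 1 gene lower. Irf7 was at 266, 146, 127, 129 and 34.6 TPM in controls against 91.5, 52.5, 70.5, 47.9 and 44.2 in Cre libraries (-0.98 ± 0.40, adjusted p = 0.0735). Rsad2 was at 17.8, 7.28, 6.67, 6.42 and 1.23 TPM against 4.29, 2.19, 3.02, 2.19 and 1.90 (-1.0 ± 0.41, adjusted p = 0.0731). For both genes controls 1 to 4 lay above every Cre library, and control 5 lay below every one. Control replicate 5 was the lowest of the 5 controls for 32 of the 33 genes, and replicate 1 the highest for all 33.

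HEL control replicate 5 is singled out here for its low values of these same genes, so leaving it out by itself favours lower Cre values. Without HEL control replicate 5, 11 genes were lower in Cre libraries (21% of all genes were), with a median of -0.42 against -0.07. These were Irf7 (-1.42 ± 0.24, adjusted p = 0.000589), Rsad2 (-1.42 ± 0.26, adjusted p = 0.00111), Ifit3 (-1.37 ± 0.26, adjusted p = 0.00163), Ifit1 (-1.11 ± 0.26), Oasl1 (-1.03 ± 0.19), Isg15 (-0.86 ± 0.24), Rtp4 (-0.85 ± 0.18), Isg20 (-0.61), Sp100 (-0.52), Zbp1 (-0.51) and Ddx58 (-0.50), the RNA sensor RIG-I. Not all genes had lower values in Cre libraries. Oasl2 was at 65.6, 36.8, 37.1, 32.1 and 8.27 TPM in controls and 66.9, 37.4, 49.8, 36.7 and 36.4 in Cre libraries (0.53 ± 0.39 with all libraries, adjusted p = 0.314). Ifi44 was at 9.94, 7.15, 7.93, 2.46 and 0.249 TPM against 16.3, 8.91, 14.7, 5.51 and 6.36 (1.05 ± 0.51, adjusted p = 0.127). Among male libraries alone the median was 0.33 and the only call was Ifi44, which was higher (1.74 ± 0.41, adjusted p = 0.0323; 6.91% of all genes were higher). In the HEL Cre libraries the summed macrophage and monocyte markers were at 192 to 299 TPM against 25.9 to 134 in controls, with Ccr2 (2.07), Ly6c2 (1.68), Cd68 (1.48) and Csf1r (1.44) called higher, and the plasmacytoid dendritic cell gene Siglech was higher by 1.52 ± 0.12. Their part in these values was not tested.

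To compare genes at an equal interferon level, the mean log2(TPM + 1) of 48 other type I interferon-induced genes was added as a term. This comparison was chosen after the values had been seen. Such a term by itself brings these genes near 0, with a median of 0.03 in HEL and 0.14 in CpG. Higher and lower are therefore relative to the other interferon genes and do not describe a rise or fall in level. Of the 48, 35 were not themselves called for Ikaros loss after HEL. In HEL, 10 of the 33 genes were then higher in Cre libraries and 8 lower (13.7% and 25.1% of all genes). The share of lower calls is close to that of all genes and is not read as a result about the 33. The OAS family and PKR gave 5 of the 10 higher: Oasl2 (0.71 ± 0.08, adjusted p = 1.17e-05), Oas2 (0.66 ± 0.13, adjusted p = 0.00127), Oas1a (0.50 ± 0.14, adjusted p = 0.0134), Eif2ak2 (0.31) and Oas3 (0.29 ± 0.11, adjusted p = 0.049). The others were Ifi44 (1.26 ± 0.19, adjusted p = 0.00018), the RNA sensors Ifih1 (MDA5; 0.63 ± 0.09, adjusted p = 8.67e-05) and Dhx58 (LGP2; 0.19), the GTPase gene Igtp (0.33) and Parp9 (0.21). The 8 lower were Rsad2 (-0.82 ± 0.10, adjusted p = 2.78e-05), Irf7 (-0.81 ± 0.10, adjusted p = 2.66e-05), Ifit3 (-0.79 ± 0.09, adjusted p = 2.25e-05), Ifit1 (-0.56 ± 0.12), Oasl1 (-0.51 ± 0.09, adjusted p = 0.000816), Sp100 (-0.39 ± 0.06), Rtp4 (-0.36 ± 0.06) and Ddx58 (-0.29 ± 0.07).

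The same term in the CpG comparison called 5 genes higher in fl/- libraries (13% of all genes were) and 0 lower: Oasl2 (1.48 ± 0.13, adjusted p = 0.000115), Oas3 (1.01 ± 0.19, adjusted p = 0.00519), Oas1a (0.95 ± 0.20, adjusted p = 0.00942), Ifih1 (0.70 ± 0.12, adjusted p = 0.00317) and Ifi44 (0.63 ± 0.20, adjusted p = 0.0462). Their number is close to the share of all genes called, so it is not read as a result about the 33. Without the term these genes had lower values in fl/- libraries, so higher here means less lowered than the other interferon genes. The 5 genes were all called higher in HEL too, where they made up 5 of 10; the HEL and CpG comparisons share no library, and this overlap was not tested. Of the 8 genes lower in HEL none was called in CpG: 6 had negative values, Ifit3 (-0.63 ± 0.40), Rsad2 (-0.36 ± 0.15), Sp100 (-0.33 ± 0.12), Oasl1 (-0.31 ± 0.18), Irf7 (-0.19 ± 0.48) and Ddx58 (-0.16 ± 0.10). Rtp4 (0.31 ± 0.45) and Ifit1 (0.14 ± 0.09) had positive ones. Leaving out each library in turn kept Oasl2 called in 8 of 8 CpG fits, and Ifih1, Oas1a and Oas3 in 7 of 8, each being lost without fl/+ replicate 1; Ifi44 was called in 1 of 8. In HEL, Dhx58 and Igtp were called in 3 of 10 such fits, Oas3 in 4, Oas1a and Ddx58 in 9 and the other 13 genes in 10. Oas1a belongs to a cluster of close copies among which reads may be split, so its value is uncertain.

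**Figure D4:**
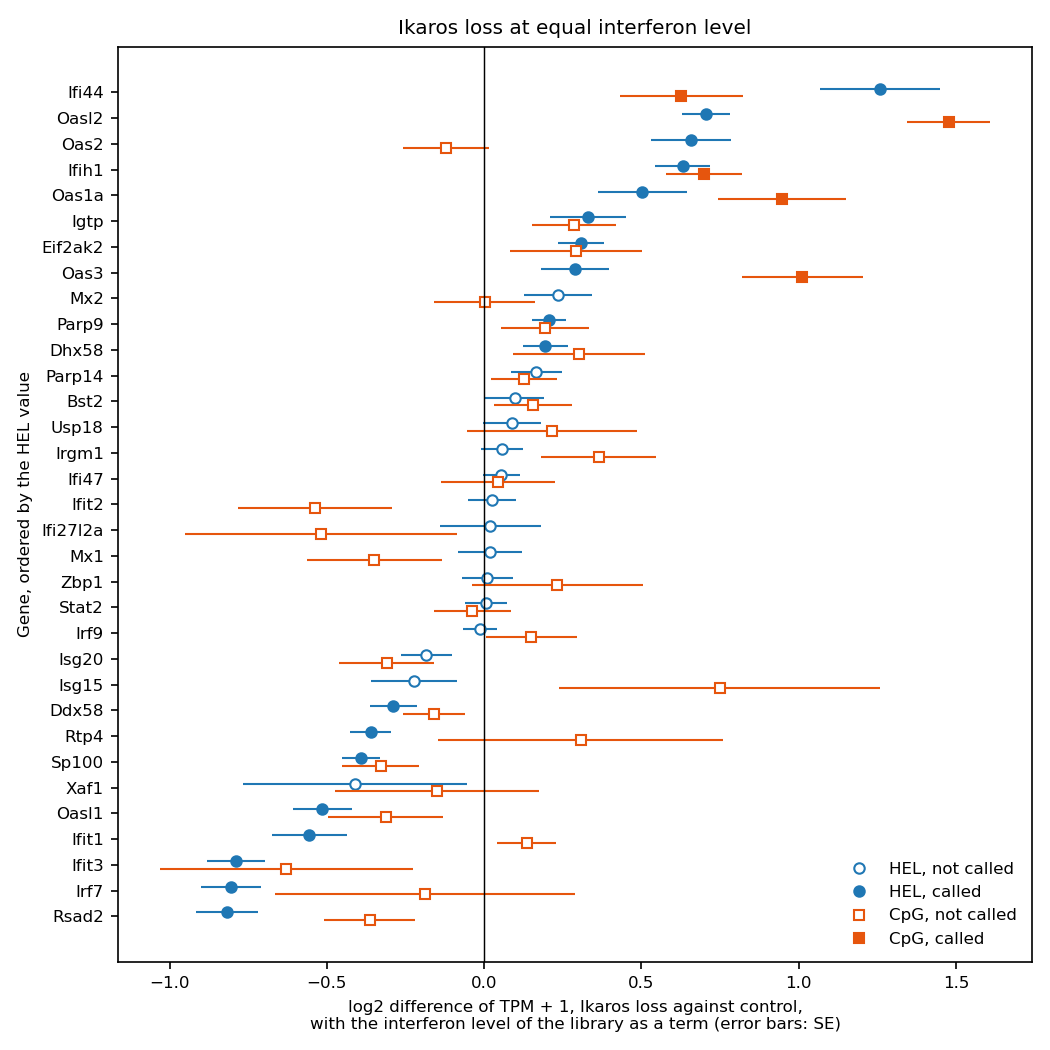
log2 difference between Ikaros-deleted and control libraries (horizontal axis, with SE bars) for the 33 genes (rows), with the level of 48 other interferon-induced genes as a term, for HEL and for CpG; filled points are called. Oasl2 is at 0.71 in HEL and 1.48 in CpG, while Rsad2 and Irf7 lie at -0.82 and -0.81 in HEL.

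The neighbouring genes Oasl1 (chr5:114923143-114937911) and Oasl2 (chr5:114896926-114912245, GRCm38) were also compared as a ratio within each library. Oasl1 lacks synthetase activity and limits the translation of Irf7, whereas Oasl2 keeps the enzymatic activity. After HEL, Oasl1 was at 128, 73.9, 78.5, 67.8 and 22.7 TPM in controls and 51.9, 40.2, 48.7, 38.7 and 28.6 in Cre libraries. The ratio of Oasl2 to Oasl1 was 0.365 to 0.512 in the controls and 0.932 to 1.29 in the Cre libraries, and the ranges did not overlap. After CpG the ratio was 0.0605, 0.0971, 0.297 and 0.282 in fl/+ replicates 1 to 4 and 0.305, 0.282, 0.573 and 0.629 in fl/-, so the ranges overlapped between the blocks, while within each block both fl/- libraries were above both fl/+ ones. In naive cells it was 0.745 and 0.572 in fl/- and 0.427 and 0.290 in fl/+ libraries of series 36, and 0.354 to 0.388 in series 57. The anergic libraries, which have Ikaros, were at 0.604, 0.507 and 0.670. The pair was chosen after its values had been seen, so the ratios are a description without a test.

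**Figure D5:**
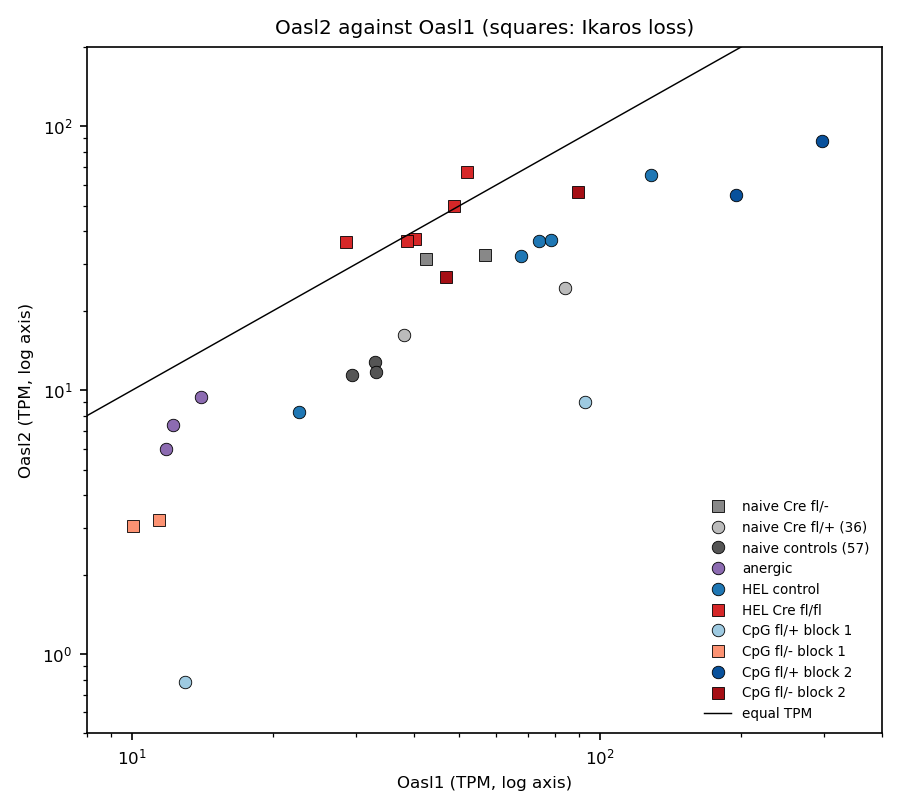
Oasl2 (vertical axis) against Oasl1 (horizontal axis), both in TPM on log axes, in the 28 libraries; squares are Ikaros-deleted libraries and the line marks equal TPM. HEL Cre libraries lie near the line with ratios of 0.932 to 1.29, and HEL controls lie below it with 0.365 to 0.512.

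In naive cells of series 36, Ikaros deletion called 0 of the 33 genes, where 0.0199% of the 10053 genes tested were called. The median was 0.31 against -0.12 over all genes, 29 of 33 differences were positive, and 15 genes had both fl/- libraries above both fl/+ libraries (11.8% of all genes had). With 2 libraries a group, limma gave 7 of the 33 and 896 of all genes at an unadjusted p under 0.05, and voom called 0 of the 33. Oas1a was at 36.6 and 41.5 TPM in fl/- and 21.5 and 26.5 in fl/+ (0.68 ± 0.20, adjusted p = 0.287). Isg20 was at 70.1 and 85.4 TPM against 52.4 and 45.4 (0.65 ± 0.18, adjusted p = 0.269), and Oasl2 at 31.5 and 32.5 against 16.3 and 24.4 (0.66 ± 0.23, adjusted p = 0.431). Irf7 overlapped, at 92.8 and 128 TPM in fl/- and 72.6 and 133 in fl/+. Macrophage and monocyte markers summed to 201 to 295 TPM in these fl/- libraries and 110 to 161 in fl/+, and neutrophil markers to 23.2 to 95.6 across the 4, against 0.348 to 0.719 in series 57; their part was not tested.

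The change with HEL in cells with Ikaros was read by comparing the 5 HEL controls with the 3 naive libraries of series 57. After HEL 17 of the 33 genes rose (9.92% of 10448 genes rose), with a median of 1.00 against -0.16 over all genes. Isg15 was at 40, 39.6 and 34.8 TPM in naive cells and 316, 183, 149, 166 and 38.7 after HEL (1.86 ± 0.50, adjusted p = 0.0118). Ifit3 was at 9.37, 6.34 and 6.48 TPM against 76.9, 41.1, 32.4, 29.1 and 9.36 (1.95 ± 0.49, adjusted p = 0.00793). In both, HEL replicate 5 lay within the naive range and the other 4 lay above it. Ifi44 (1.92 ± 0.59), Ifi27l2a (1.73 ± 0.35, adjusted p = 0.00274), Xaf1 (1.68 ± 0.45), Usp18 (1.57 ± 0.49), Oas1a (1.34 ± 0.49) and Ifit1 (1.30 ± 0.46) followed. Called genes were 3 of 5 regulators, 0 of 4 sensors, 2 of 6 of the OAS family and PKR, 4 of 8 effectors, 2 of 3 GTPases and 6 of 7 others; Irf7 was not among them (0.98 ± 0.48, adjusted p = 0.117). Without replicate 5, the lowest HEL control for 32 of the 33 genes, the count was 31 (10.8% of all genes). Since this library is picked out by its low values of these genes, leaving it out by itself favours a rise. Among the male libraries alone the count was 5 (6.39%), and sex differs between the groups, since the naive libraries were all male. T cell markers summed to 48.7 to 85.8 TPM in HEL controls and 11.3 to 17.9 in naive libraries, with Lck called higher (2.40 ± 0.20). Of the 8 T cell markers measured, 6 were under 1 TPM in every HEL control, so the other 2 made up most of that sum. Macrophage and monocyte markers summed to 25.9 to 134 TPM against 38.1 to 51.2. Of these, Ly6c2 (1.88 ± 0.54) and Cd68 (0.70) were called higher and C1qa (-2.15), C1qb (-1.89) and Csf1r (-1.49) lower. Their part was not tested.

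Anergic cells had lower levels than naive cells for 10 of the 32 genes tested (2.89% of 10519 genes were lower), with a median of -0.69 against 0.07; Ifi44 was too low to test. All 3 anergic libraries were below all 3 naive libraries for 21 of the 32 (9.51% of all genes were). Oas3 was at 22.6, 19.7 and 18.9 TPM in naive and 4.33, 3.58 and 7.71 in anergic cells (-1.84 ± 0.22, adjusted p = 0.00265). Oasl1 was at 33.1, 33.2 and 29.5 TPM against 12.2, 11.8 and 14 (-1.27 ± 0.11, adjusted p = 0.000505), and Irf7 at 57.4, 62.2 and 58.1 against 20.3, 22.6 and 30.6 (-1.26 ± 0.15, adjusted p = 0.00229). For these 3 genes every anergic library was below every naive one. Bst2, which encodes tetherin and holds budding virus at the membrane, was at 181, 158 and 173 TPM against 80.3, 73.3 and 105 (-0.99 ± 0.14, adjusted p = 0.00467). Oas2 (-1.48 ± 0.27), Oas1a (-1.22 ± 0.25), Mx2 (-1.18 ± 0.22), Ifit1 (-1.12 ± 0.23), Mx1 (-1.0 ± 0.24) and Dhx58 (-0.71 ± 0.12) were also lower.

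By role, 4 of 6 genes of the OAS family and PKR and 4 of 8 effectors were called, against 1 of 5 regulators, 1 of 4 sensors, 0 of 3 GTPases and 0 of 6 others. Isg15 was at 14.1, 10.7 and 28.9 TPM (-1.16 ± 0.30, adjusted p = 0.0536), and Stat2 overlapped, at 65.6, 67.3 and 57 TPM in anergic against 55.1, 59.3 and 53.2 in naive cells. The library with Cd23-cre was the highest anergic one for 27 of the 33 genes, and without it 19 genes were called (3.32% of all genes). Its removal by itself favours lower anergic values, since it is picked out by these same genes. Without any 1 of the naive libraries or the Ikzf1(fl/fl) anergic library 4 or 5 were called (1.16% to 1.42% of all genes). T cell markers summed to 81.2 to 117 TPM in anergic and 11.3 to 17.9 in naive libraries. Of the 8 measured, 6 were under 1 TPM in every anergic library, so the other 2 made up nearly all of the anergic sum. The part of these transcripts was not tested. Against the 5 HEL controls, 28 of the 33 genes were lower in anergic cells (5.39% of 10491 genes were), with a median of -1.86 against 0.23. The largest were Isg15 (-3.03 ± 0.55, adjusted p = 0.00277), Oas3 (-2.77 ± 0.59, adjusted p = 0.00577), Ifit3 (-2.68 ± 0.56), Oas1a (-2.56 ± 0.51), Ifi27l2a (-2.49 ± 0.41), Xaf1 (-2.42 ± 0.41), Ifit1 (-2.42 ± 0.48) and Oasl1 (-2.27 ± 0.41). Igtp, Sp100, Parp14, Irf9 and Ddx58 were not called, and among male libraries alone the count was 3 (0.991% of all genes). The comparisons of anergic cells with naive cells and with HEL controls share the anergic libraries.

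The effect of Ikaros loss after CpG was set against that after HEL in a single fit. The difference was called for 0 of the 33 genes (22.4% of 11050 genes were called in either direction), with a median of -1.10 against 0.08 over all genes. limma gave 0 of the 33 and 3911 of all genes at an unadjusted p under 0.05, and voom called 0 of the 33. The largest values were those of Ifi44 (-2.06 ± 1.27) and Irf7 (-1.96 ± 1.93). With the CpG block as a term, Ifi47 (-1.17 ± 0.39, adjusted p = 0.0353) and Stat2 (-0.99 ± 0.32, adjusted p = 0.0308) were called (27.1% of all genes). Without CpG fl/+ replicate 1 the count was 7 (25.4%). That library is picked out by its low values of these genes, so its removal by itself favours lower CpG values.

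Interferon transcripts themselves were almost not detected. Of 19 listed interferon genes in the files, 15, including Ifnb1, were listed at 0 in all 28 libraries, none reached 1 TPM, and their sum was at most 0.928 TPM. After HEL, 3 of 11 genes of the receptors and the JAK-STAT pathway were higher with Ikaros deleted, Ifnlr1 (0.58), Jak2 (0.34) and Ifnar2 (0.19), and 2 were lower, Il10rb (-0.49 ± 0.07, adjusted p = 9.43e-05) and Jak1 (-0.36), counts that are not read further beside the 12.9% and 24.1% of all genes. Ifngr1, a chain of the interferon gamma receptor, was lower after HEL (-0.76 ± 0.06) and in anergic cells (-0.62 ± 0.10) than in naive cells; both comparisons share the naive libraries.

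Among 19 genes that lead to interferon production, CpG-treated fl/- cells were lower in 4 (5.8% of all genes were) and higher in 0 (9.14%): Tlr9, the receptor for CpG (-0.84 ± 0.12, adjusted p = 0.00248), the kinase gene Ikbke (-0.53 ± 0.10), Mavs (-0.42) and Irf8 (-0.41). After HEL, Tlr9 was instead higher with Ikaros deleted (0.53 ± 0.13), and the difference between the CpG and HEL effects was called (-1.38 ± 0.20, adjusted p = 0.000129). In all, 3 of these 19 were higher and 8 lower after HEL, among them Tmem173, which encodes STING (0.47), Irf2 (-0.34) and Irf5 (-0.25), beside 12.9% and 24.1% of all genes. Between the CpG blocks, Irf1 (1.4 ± 0.22, adjusted p = 0.0176) and Irf4 (0.65) were called higher. Of the inhibitors, Socs1, which blocks the Jak kinases, was higher in the second CpG block (1.5 ± 0.27, adjusted p = 0.026), and Socs3 was lower in anergic than in naive cells (-2.02 ± 0.26, adjusted p = 0.00322).

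The wider interferon lists were counted in the same fits. Of 45 other type I interferon-induced genes tested, 33 were higher in the second CpG block and 0 lower (2.51% and 1.16% of all genes). Of 22 genes more typical of interferon gamma 19 were higher and 0 lower, among them the GTPase genes Tgtp2 (2.85) and Gbp6 (2.23). These block calls also rest on single libraries: without fl/- replicate 4 only 1 of 10238 genes was called higher. Ikaros deletion after CpG called 1 of the 45 higher, Slfn9 (1.79 ± 0.22), and 2 lower, AW112010 (-1.62) and Helz2 (-1.06), shares below those of all genes. After HEL, 5 of 48 were higher and 8 lower, also shares below the 12.9% and 24.1% of all genes, including Parp12 (1.48), Ube2l6, which conjugates Isg15 (0.77), the DNA exonuclease gene Trex1 (0.49) and Shisa5 (-0.43). Of 23 gamma-weighted genes, 6 were higher and 2 lower after HEL, with Iigp1 (1.55) and Gbp2 (0.85) among the higher. In anergic cells 2 of 44 type I genes were lower, Slfn5 (-1.4) and Lgals3bp (-1.15), while 3 of 21 gamma-weighted genes were higher, Gbp3 (1.32 ± 0.16), Gbp5 (0.75) and Gbp9 (0.47); 2.89% of all genes were lower and 4.48% higher. After exposure to HEL 14 of 48 type I genes rose and 2 fell against naive cells (9.92% and 38.1% of all genes), and 24 of 48 were lower in anergic cells than after HEL (5.39% of all genes).

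Markers of further cell types were counted in all libraries. NK cell markers summed to 1.56 to 5.84 TPM in CpG libraries and 4.77 to 43.6 elsewhere, and conventional dendritic cell markers to 13.8 to 22.3 TPM in HEL Cre libraries against 4.60 to 8.06 in HEL controls. T cell markers summed to 3.11 to 17.8 TPM in CpG libraries. Siglech was at 0 in all CpG fl/+ libraries, although other genes of the plasmacytoid dendritic cell list are also B cell genes and kept its sum at 4973 TPM or more. Erythroid markers stayed at or below 5.06 TPM in all libraries. Plasma cell markers summed to 692 to 1019 TPM outside CpG and 1173 to 2046 in CpG libraries. Fcer2a, the B cell gene encoding CD23, was lower in the second CpG block (-2.37 ± 0.23).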

How the data were processed

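RNA was extracted from sorted cells with the Rneasy Plus Mini Kit and Dynabeads mRNA purification, per the labels. The authors deposited 1 TPM table per RNA library (24732 genes); the submitters' processing notes name TopHat 1.4.1, Bowtie, featureCounts 1.5.0, SAMtools 1.4, deepTools 3.0.1 and build mm9, and which tool served which assay is not given in the sources used here. Chromatin samples of the series (8 ATAC-seq, 4 ChIP-seq) were not used here.

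TPM was recovered as whole reads per gene for 18843 of 18843 genes above 0 (tolerance 0.01), and those reads gave depth and the voom alternative. Replicate pairs (37) differed by more than sampling noise (chi-square per degree of freedom 6.63 to 84.95), so none was merged. The main test was limma 3.58.1 (R 4.3.3, trend) on log2(TPM + 1). It was two-sided and covered all genes with at least 1 TPM in as many libraries as the smaller group holds. Genes were called at a Benjamini-Hochberg adjusted p under 0.05. It was also run on simulated libraries. These had no library-number blocks and no shifts shared between genes, so they do not show how it behaves with the spread seen here. Differences are on the log2(TPM + 1) scale, which understates changes of low genes. The words rose, fell, higher and lower beside a call refer to the limma test. Groups came from the genotype and preparation labels, and comparisons stayed within 1 library series except for CpG against HEL.

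The 33 genes, the pathway and marker lists and the tests were chosen with earlier results of these data known. The rule was to name the genes past the threshold in each comparison, at most 8 each way by size. Otherwise up to 4 per role with the highest TPM were named. Some comparisons name more, and in the second CpG block alone not every gene of that size is named. Of other lists, up to 4 called genes with the smallest adjusted p were named. Promoters were shown for up to 4 genes with a core and the largest block difference. The sex of each library was read from Y-linked transcripts. Alternatives tried were the pseudocount, the filter on low TPM, voom, terms for block, sex or interferon level, and leaving out each library. A result of 1 further pathway gene is not reported here.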

Additional observations from a re-analysis of the deposited data

Results flagged for a closer look

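Of 136 sets of 4 or 5 libraries examined (each gene, and the mean over the 33 genes, in each HEL and CpG group), 2 held a library whose gap to the nearest other was large against the whole range; chance marks about 1 in 20. Both were replicate 1 of the HEL Cre group. Stat2 was at 125 TPM there and at 91.9 to 98.1 in the other 4 libraries. Zbp1 was at 138 TPM there and at 96.7 to 103 in the others. That library was the highest of its group for 30 of the 33 genes.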

How the results depend on the processing

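No paired analysis was possible because the labels give no replicate numbers that link libraries of different groups. The counts of called genes that moved were as follows. Ikaros loss after HEL called 1 gene in the main test. With sex as a term it called 5 (1 higher, 4 lower), where 13% and 24% of all genes were called higher and lower. In male libraries it called 1, higher instead of lower (6.91% of all genes), and the median was 0.33 in place of -0.06. With the interferon level as a term it called 18 (10 higher, 8 lower, beside 13.7% and 25.1% of all genes). When that level used only genes not called in the comparison it called 19 (11 higher, 8 lower, beside 13.8% and 24.8%). Ikaros loss after CpG called 0, and 13 lower with the block as a term (9.04% of all genes). It called 30 lower in the second block alone (11.9%) and 5 higher with either interferon level (13%). The CpG block difference called 31 (2.51% of all genes), but 4 without a filter on low TPM (0.371%) and 1 without genotype as a term (0.173%). HEL against naive called 17 (9.92% of all genes), 8 without the filter (5.7%) and 5 in male libraries (6.39%). Anergic against HEL called 28 (5.39%) and 3 in male libraries (0.991%), where its median was -1.05. CpG minus HEL called 2 with the block term, beside 27.1% of all genes. The anergic against naive median of -0.69 became -0.45 with a pseudocount of 5, -0.59 with a minimum of 5 TPM, -0.80 with voom and -0.79 without the Cre library. With the interferon level of all or of uncalled genes as a term, the CpG values of Ifi44 (0.63, 0.64), Ifih1 (0.70, 0.70), Oas1a (0.95, 0.96), Oas3 (1.01, 1.02) and Oasl2 (1.48, 1.49) turned positive. Such values are relative to the other interferon genes. The cause was not tested in any of these.

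Leaving out each library gave counts of 1 to 11 for HEL loss, 0 to 6 for CpG loss and 0 to 32 for the CpG block. Counts were 4 to 19 for anergic against naive, 7 to 31 for HEL against naive and 20 to 33 for anergic against HEL. They were 0 to 7 for CpG minus HEL, and 13 to 18 (HEL) and 2 to 7 (CpG) at equal interferon level. In these fits 19.6% to 24.6% of all genes were lower for HEL loss and 3.07% to 7.27% for CpG loss. Lower were 1.16% to 4.14% for anergic against naive, 3.57% to 6.22% against HEL and 6.03% to 8.61% for CpG minus HEL. Higher were 0.00977% to 7.98% for the CpG block and 7.5% to 10.8% for HEL against naive. At equal interferon level 10.1% to 14.1% (HEL) and 5.88% to 16.3% (CpG) were higher, and 14% to 26.5% lower in HEL. The medians ranged over 0.22 to 0.40 for naive loss, -0.42 to 0.11 for HEL loss, -1.93 to -0.75 for CpG loss, 2.04 to 2.80 for the block, -1.38 to 0.74 for the block interaction, -0.79 to -0.47 for anergic against naive, 0.77 to 1.38 for HEL against naive, -2.20 to -1.56 for anergic against HEL and -2.0 to -0.59 for CpG minus HEL. For single genes, 2043 values under the other alternatives kept direction and side of the threshold, 118 came to pass it, 126 ceased to pass it and 10 reversed. Of the 33 genes, 26 passed the filter in the first CpG block, where low counts leave changes of the others undetectable. The interferon level used as a term was measured in the same libraries.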
